A study of Mus musculus with 12 samples.

Results

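Mitosis genes are the genes whose proteins carry a cell through division, from the kinases that start mitosis to the motors that split the cell. A list of 40 of them was followed on 12 arrays of sorted mouse back skin cells, and 39 of the 40 were measured, out of 18161 genes with a probe set on the array. Ccnb1, which encodes cyclin B1, was not analysed here. The mice were females of 72 to 74 days on a mixed C57BL/6 and CD1 background, an age at which resting hair follicles enter their second adult growth phase. The labels give 2 genotypes, TßRII-cKO (cKO) and TßRII-Het (Het), and the sorting markers Rosa26-YFP, P-cadherin and CD34, which all groups share. The sources used here give neither the line that removes the receptor gene Tgfbr2 in cKO mice nor the cells in which it acts. Each genotype gave hair germ cells (HG), bulge cells and total skin keratinocytes (TK), each collected in set 2 and in set 1. HG and bulge cells of set 2 are labelled aberrantly quiescent in cKO and activated in Het, and those of set 1 quiescent in both genotypes. TK arrays carry no such state. Each HG and bulge group held 1 array, and TK of each genotype held 2, one of each set, so the state cannot be told apart from the set. The labels do not say whether arrays came from separate animals, and the p-values measure only the spread between these arrays.

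Before a cell divides, cyclin-dependent kinase 1 with its cyclins starts chromosome condensation and spindle assembly, the spindle checkpoint waits until every chromosome is attached, and the anaphase-promoting complex (APC/C) then marks cyclins and securin for destruction. Most of these genes are transcribed late in the cell cycle and are repressed in resting cells. This control involves promoter elements named the cell cycle genes homology region and the CCAAT box. In the hair follicle the HG, a small cluster of cells below the bulge, is known to divide first when a new growth phase starts, and the bulge divides later and less.

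The promoters of the list carried the letters of these elements more often than promoters in general. RefSeq promoter sequences (GRCm38.p6, 250 bases before to 50 after the annotated start) were matched for 33 of the 40 genes, with 35 promoters, since 2 genes had 2 each. The letters TTTGAA or TTTAAA, searched on both strands, stood in 30 of 35 promoters (85.7%), against 27.6% of all 32851 promoters. In the last 100 bases of the window they stood in 77.1%, against 8.28% of all promoters. CCAAT, also on both strands, stood at least once in 80.0% against 37.4%, and at least 2 times in 57.1% against 11.7%. The letters TTTGAA or TTTAAA together with at least 2 CCAAT were found in 51.4% of the list's promoters and in 3.13% of all promoters, and 1 match overlapped one of the other kind. The list was drawn from known mitosis genes and these shares are a description, with no test. Bub1, Mad2l1, Nek2, Nuf2 and Nusap1 had neither TTTGAA nor TTTAAA in the window, which says only that these letters are not there. Among 83 promoters of other mitosis genes the shares were 53.0% for TTTGAA or TTTAAA and 63.9% for CCAAT, and among 17 promoters of APC/C core subunits 11.8% and 41.2%.

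Stretches of 200 bases ending at the annotated start show the arrangement, 5′ to 3′ on the gene's strand. Capitals mark these letters on either strand, where TTCAAA is the reverse complement of TTTGAA, and ATTGG that of CCAAT. The promoters were picked after the matches were seen, to show clustered matches, matches far from the start and a promoter without any. Cdk1 (chr10:69352913-69353112, minus strand) and Cdc20 (chr4:118437344-118437543, minus strand) carry TTTGAA close to the start with 2 CCAAT elements upstream or beside it. Top2a (chr11:99024190-99024389, minus strand) and Ube2c (chr2:164769729-164769928, plus strand) carry 5 CCAAT matches each. In Ube2c 2 of these overlap in the stretch CCAATTGG, which was counted on both strands. Mki67 (chr7:135716380-135716579, minus strand) has both kinds well before the start, and Mad2l1 (chr6:66535021-66535220, plus strand) has none in this stretch.
Cdk1: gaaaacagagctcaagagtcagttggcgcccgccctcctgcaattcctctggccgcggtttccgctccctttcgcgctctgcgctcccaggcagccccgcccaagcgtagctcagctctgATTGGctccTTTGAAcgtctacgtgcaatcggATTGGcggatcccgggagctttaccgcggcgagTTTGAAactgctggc
Cdc20: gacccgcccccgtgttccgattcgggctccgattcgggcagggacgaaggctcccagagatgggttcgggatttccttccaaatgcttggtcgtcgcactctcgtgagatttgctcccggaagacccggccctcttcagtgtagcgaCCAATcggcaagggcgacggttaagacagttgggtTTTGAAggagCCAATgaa
Top2a: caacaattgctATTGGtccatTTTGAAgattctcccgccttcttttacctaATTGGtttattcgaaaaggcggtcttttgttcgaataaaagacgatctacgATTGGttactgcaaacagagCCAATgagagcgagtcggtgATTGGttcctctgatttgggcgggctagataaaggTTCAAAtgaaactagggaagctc
Ube2c: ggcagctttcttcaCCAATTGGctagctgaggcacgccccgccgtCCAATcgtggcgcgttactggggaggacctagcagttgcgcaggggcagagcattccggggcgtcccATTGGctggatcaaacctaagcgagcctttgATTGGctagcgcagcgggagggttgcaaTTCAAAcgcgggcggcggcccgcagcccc
Mki67: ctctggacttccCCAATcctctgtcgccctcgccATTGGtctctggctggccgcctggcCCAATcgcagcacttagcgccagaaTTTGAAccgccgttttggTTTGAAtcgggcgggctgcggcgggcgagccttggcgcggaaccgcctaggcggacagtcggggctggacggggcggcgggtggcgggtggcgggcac
Mad2l1: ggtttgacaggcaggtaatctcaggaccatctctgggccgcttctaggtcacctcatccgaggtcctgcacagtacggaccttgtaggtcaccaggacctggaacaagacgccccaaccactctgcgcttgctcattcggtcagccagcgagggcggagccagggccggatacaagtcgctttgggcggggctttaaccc

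**Figure D1:**
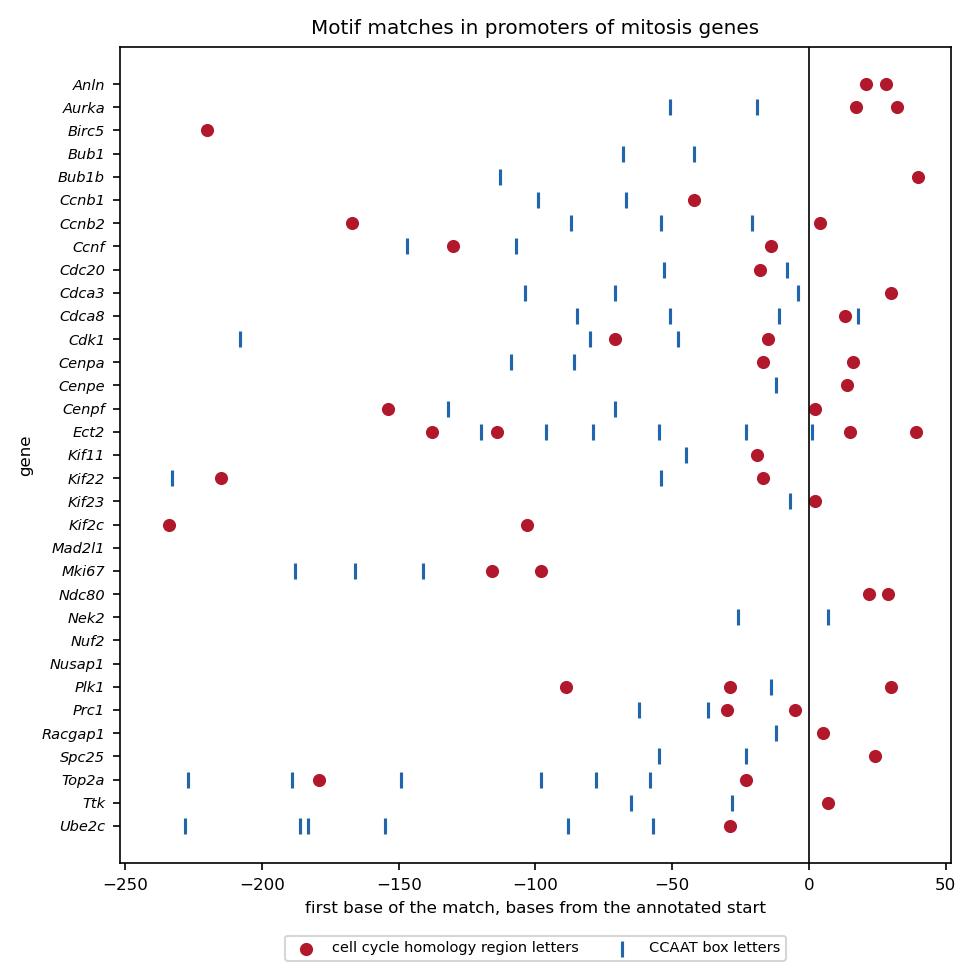
Positions of motif letters in the RefSeq promoters of 33 mitosis genes, with 1 gene a row and the first base of each match on the x axis in bases from the annotated start (the vertical line). Red points are TTTGAA or TTTAAA and blue bars CCAAT, on either strand, and most red points lie within the last 100 bases of the window, with Bub1, Mad2l1, Nek2, Nuf2 and Nusap1 without one.

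The deposited values were MAS5 signals on a linear scale, and the median signal per array ran between 63.9 (Het HG set 2) and 109 (cKO bulge set 1). Tgfbr2 itself lay between 2533 and 4523 on the 6 cKO arrays and between 1305 and 5373 on the 6 Het arrays, so its signal did not separate the genotypes, and the sources used here do not place its probes relative to the deleted part. The sort markers followed the gates. Cd34 ran from 200.4 to 413 in HG, from 21899 to 28386 in bulge and from 1048 to 2529 in TK. Cdh3 (P-cadherin) ran from 598 to 1559 in HG, from 260.3 to 548 in bulge and from 642 to 1076 in TK. Summed over 9 bulge markers the signal was 29164 to 76737 in HG and 134121 to 167737 in bulge, with Fgf18 at the floor on 2 HG arrays. Summed over 6 hair germ markers it was 14629 to 24881 in HG, 3540 to 5803 in bulge and 19517 to 22369 in TK. In sorted bulk cells fewer dividing cells and less RNA per cell cannot be told apart.

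Activated Het HG cells carried the highest level of almost the whole list. On 38 of the 39 genes this array was the highest of the 12, against 19% of all genes tested. Foxm1 was the exception, with its highest signal in cKO bulge set 1. Averaged over the 39 genes the log2 signal in HG was 9.63 in cKO set 2 and 11.30 in Het set 2, against 9.28 in cKO set 1 and 9.65 in Het set 1. In bulge it was 8.04 in cKO set 2 and 8.51 in Het set 2, against 7.71 in cKO set 1 and 7.59 in Het set 1. In TK it was 8.96 in cKO set 2 and 10.18 in Het set 2, against 8.76 in cKO set 1 and 9.003 in Het set 1. The array of second highest signal was Het TK set 2 for 29 of the 39 genes. The lowest means were those of the bulge arrays, and every bulge mean lay below every HG and every TK mean.

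Activated Het HG exceeded each of the other 3 HG arrays for 38 genes, against 30.9% of all genes tested, and by at least 2-fold for 32 of them, against 4.44%. The median ratio to the highest of the other HG arrays was 2.87, and apart from Foxm1 the ratios ran from 1.21 (Anln) to 5.46 (Nek2). These ratios compare single arrays and have no replicate check. The counts of arrays with the highest value and of groups that do not overlap were chosen after the values were seen. On the same activated array the summed signal of 7 hair matrix and hair shaft precursor markers was 36443, against 2497 to 4404 on the other HG arrays. The epidermal markers (8 genes) summed to 20037 against 55063 to 92377, with Krt2 and Flg at the floor, and the immune markers (10 genes) to 3516 against 11124 to 13964, with none at the floor. The part of these shifts in the levels of the mitosis genes was not tested.

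**Figure D2:**
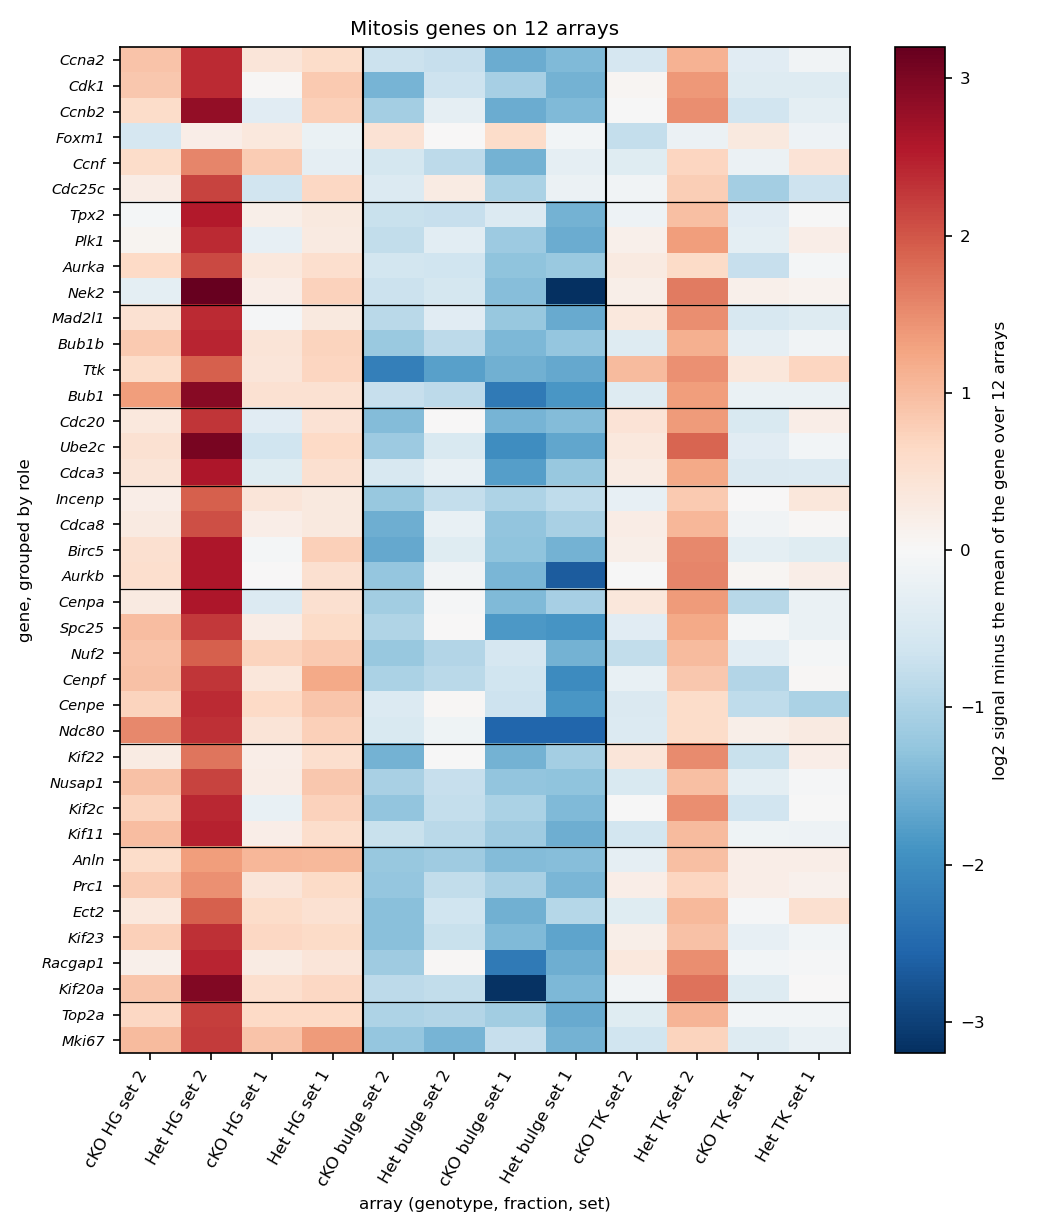
Log2 signal of each of 39 mitosis genes on each of 12 arrays, minus the mean of that gene over the arrays (red higher, blue lower), with genes grouped by role and columns by fraction, set and genotype. The Het HG set 2 column is the reddest except for Foxm1, and the bulge columns are mostly blue.

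The regulators of mitotic entry, apart from Foxm1, stood highest on the activated HG array. Ccna2, cyclin A2, which partners the cyclin-dependent kinases from DNA replication into mitosis, had HG signals of 2239 in cKO set 2 and 6229 in Het set 2, against 1558 in cKO set 1 and 1763 in Het set 1. In bulge Ccna2 had 735 in cKO set 2, 706 in Het set 2, 396 in cKO set 1 and 447 in Het set 1. In TK Ccna2 had 820.3 in cKO set 2, 2536 in Het set 2, 916 in cKO set 1 and 1101 in Het set 1. Every HG array of Ccna2 lay above every bulge array, and the activated Het HG array stood alone at the top. Cdk1, the kinase that starts mitosis, had HG signals of 2056 in cKO set 2 and 5853 in Het set 2, against 1166 in cKO set 1 and 2004 in Het set 1. In bulge Cdk1 had 405 in cKO set 2, 711 in Het set 2, 537 in cKO set 1 and 397 in Het set 1. In TK Cdk1 had 1167 in cKO set 2, 2923 in Het set 2, 842 in cKO set 1 and 848 in Het set 1. For Cdk1 too the HG and bulge arrays did not overlap, while the 3 quiescent HG arrays lay within the TK range. Ccnb2, cyclin B2, a partner of CDK1, had 4188 in activated Het HG, 466 to 1008 on the other HG arrays and 199 to 488 in bulge. Ccnf, cyclin F, the substrate-binding part of a ubiquitin ligase, had 445 in activated Het HG, 123 to 266 on the other HG arrays and 52.7 to 123 in bulge. Cdc25c, a phosphatase that activates CDK1, had 549.9 in activated Het HG, 80.4 to 196 on the other HG arrays and 61.6 to 149 in bulge. Ccnb2 and Cdc25c were among the 7 genes whose HG and bulge arrays overlapped, through cKO HG set 1 for Ccnb2 and through cKO HG set 1 and cKO HG set 2 for Cdc25c.

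Foxm1, a transcription factor that acts on promoters of mitosis genes, did not follow the rest. Foxm1, read by the probe set with its highest mean signal, had 297 in activated Het HG, 176 to 322 on the other HG arrays and 242 to 385 in bulge. Its signals thus ran within a narrow range with HG and bulge mixed. The probe sets of Foxm1 disagreed. A second one exceeded the pooled median of 84.7 on all 12 arrays, with a mean log2 difference of 0.52 between HG and bulge. It read 243 on activated Het HG and was highest in cKO HG set 1, at 257. Another one read 180 on activated Het HG and at most 75.6 on the other arrays, and so exceeded that median on 1 array only. That probe set was singled out after its values were seen.

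The mitotic kinases and Tpx2 each had their lowest signal in a bulge array of set 1. Tpx2, the spindle protein that activates Aurora A, had HG signals of 272 in cKO set 2 and 1639 in Het set 2, against 321 in cKO set 1 and 355 in Het set 1. In bulge Tpx2 had 174 in cKO set 2, 169.7 in Het set 2, 211 in cKO set 1 and 100.1 in Het set 1. In TK Tpx2 had 253 in cKO set 2, 549.8 in Het set 2, 222 in cKO set 1 and 280.0 in Het set 1. Tpx2 was high on the activated array, while the other 3 HG arrays lay close together and above the highest bulge array. Plk1, polo-like kinase 1, which acts at centrosomes, kinetochores and the cleavage furrow, had HG signals of 264 in cKO set 2 and 1305 in Het set 2, against 208 in cKO set 1 and 305 in Het set 1. In bulge Plk1 had 143 in cKO set 2, 197 in Het set 2, 110.2 in cKO set 1 and 82.3 in Het set 1. In TK Plk1 had 276 in cKO set 2, 624 in Het set 2, 201 in cKO set 1 and 285 in Het set 1. The quiescent HG arrays of Plk1 lay within its TK range, and its bulge arrays lay below both. Aurka, Aurora A, the kinase of centrosomes and spindle poles, had 997 in activated Het HG, 292 to 358 on the other HG arrays and 95.4 to 153 in bulge. Nek2, a kinase that separates centrosomes, had 1879 in activated Het HG, 168 to 344 on the other HG arrays and 10.6 to 139.5 in bulge. Nek2 lay under the floor of 20.7 in Het bulge set 1, so differences from that array are lower bounds.

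Genes of the spindle assembly checkpoint differed widely between HG and bulge. Mad2l1, MAD2, which holds CDC20 until chromosomes are attached, had HG signals of 1731 in cKO set 2 and 6386 in Het set 2, against 1187 in cKO set 1 and 1512 in Het set 1. In bulge Mad2l1 had 678 in cKO set 2, 954 in Het set 2, 525 in cKO set 1 and 402 in Het set 1. In TK Mad2l1 had 1539 in cKO set 2, 3435 in Het set 2, 866 in cKO set 1 and 928 in Het set 1. The Mad2l1 signal of each HG array exceeded that of each bulge array, and set 2 arrays were high in both TK genotypes. Bub1b, BUBR1, a further inhibitor of CDC20, had HG signals of 679 in cKO set 2 and 2036 in Het set 2, against 505 in cKO set 1 and 614 in Het set 1. In bulge Bub1b had 165 in cKO set 2, 211 in Het set 2, 139 in cKO set 1 and 160.2 in Het set 1. In TK Bub1b had 283 in cKO set 2, 832 in Het set 2, 308 in cKO set 1 and 346 in Het set 1. Bub1b had no overlap between HG and bulge, and its bulge arrays lay below all TK arrays. Ttk, MPS1, the kinase at the head of the checkpoint, had 1268 in activated Het HG, 441 to 545 on the other HG arrays and 74.4 to 116 in bulge. Bub1, a kinase that recruits checkpoint proteins to kinetochores, had 2344 in activated Het HG, 439 to 796 on the other HG arrays and 64.8 to 189.6 in bulge. Both kinases separated HG from bulge on every array.

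The activator and the partners of the APC/C were the role in which no gene fully separated HG from bulge. Cdc20, the activator that brings substrates to the APC/C, had HG signals of 2511 in cKO set 2 and 9679 in Het set 2, against 1549 in cKO set 1 and 2740.0 in Het set 1. In bulge Cdc20 had 758 in cKO set 2, 1989 in Het set 2, 715 in cKO set 1 and 759 in Het set 1. In TK Cdc20 had 2701 in cKO set 2, 5132 in Het set 2, 1427 in cKO set 1 and 2293 in Het set 1. Here cKO HG set 1 fell below Het bulge set 2, so that the fractions overlapped through these arrays. Ube2c, the ubiquitin-conjugating enzyme of the APC/C, had HG signals of 1469.6 in cKO set 2 and 8573 in Het set 2, against 666 in cKO set 1 and 1636 in Het set 1. In bulge Ube2c had 468 in cKO set 2, 743 in Het set 2, 264 in cKO set 1 and 330.3 in Het set 1. In TK Ube2c had 1308 in cKO set 2, 3805 in Het set 2, 817 in cKO set 1 and 982 in Het set 1. Ube2c overlapped in the same way, with cKO HG set 1 just below Het bulge set 2. Cdca3, a trigger of mitotic entry, had 4922 in activated Het HG, 631 to 1161 on the other HG arrays and 244 to 698 in bulge. Cdca3 overlapped between HG and bulge through the same arrays.

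The chromosomal passenger complex, which corrects faulty attachments and prepares cytokinesis, separated HG from bulge with all 4 of its genes. Incenp, its scaffold, had HG signals of 1769 in cKO set 2 and 5708 in Het set 2, against 1998 in cKO set 1 and 1887 in Het set 1. In bulge Incenp had 661 in cKO set 2, 893 in Het set 2, 765 in cKO set 1 and 865 in Het set 1. In TK Incenp had 1274 in cKO set 2, 2698 in Het set 2, 1534 in cKO set 1 and 1967 in Het set 1. Incenp was higher in set 2 than in set 1 in Het and lower in cKO, in each of the 3 fractions, as 1 of 39 genes (2.56%), against 1.33% of all genes. Cdca8, borealin, which anchors the complex at centromeres, had HG signals of 1659 in cKO set 2 and 5637 in Het set 2, against 1571 in cKO set 1 and 1676 in Het set 1. In bulge Cdca8 had 459 in cKO set 2, 1140.5 in Het set 2, 559.6 in cKO set 1 and 663 in Het set 1. In TK Cdca8 had 1603 in cKO set 2, 2806 in Het set 2, 1249.6 in cKO set 1 and 1390.0 in Het set 1. The lowest HG array of Cdca8 lay above the highest bulge array. Birc5, survivin, had 5152 in activated Het HG, 809 to 1446 on the other HG arrays and 275 to 648 in bulge. Aurkb, Aurora B, its kinase, had 1658 in activated Het HG, 277 to 398 on the other HG arrays and 43.2 to 251 in bulge. Birc5 and Aurkb also had no overlap between HG and bulge.

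Kinetochore genes connect chromosomes with the spindle. Cenpa, the histone H3 variant of centromeres, had HG signals of 1047 in cKO set 2 and 5157 in Het set 2, against 627 in cKO set 1 and 1220.0 in Het set 1. In bulge Cenpa had 391 in cKO set 2, 825 in Het set 2, 322 in cKO set 1 and 409 in Het set 1. In TK Cenpa had 1103 in cKO set 2, 2185 in Het set 2, 462 in cKO set 1 and 735 in Het set 1. Cenpa overlapped between the fractions, again through cKO HG set 1 and Het bulge set 2. Spc25, a subunit of the NDC80 complex, which binds microtubules, had HG signals of 1284 in cKO set 2 and 3080.2 in Het set 2, against 763 in cKO set 1 and 980.2 in Het set 1. In bulge Spc25 had 329.8 in cKO set 2, 651 in Het set 2, 179 in cKO set 1 and 173 in Het set 1. In TK Spc25 had 498 in cKO set 2, 1486 in Het set 2, 613 in cKO set 1 and 555 in Het set 1. Spc25 had no overlap between HG and bulge by the probe set used, and in bulge the Het set 2 array was the highest. Another probe set of Spc25 differed by -0.05 on average between HG and bulge. Nuf2, of the same complex, had 1713 in activated Het HG, 743 to 859.7 on the other HG arrays and 159 to 313 in bulge. Ndc80, its naming subunit, had 612 in activated Het HG, 162 to 348 on the other HG arrays and 6.17 to 110.2 in bulge. Ndc80 lay under the floor in both bulge arrays of set 1. Cenpf, a large protein of the outer kinetochore, had 2159.9 in activated Het HG, 575 to 1033 on the other HG arrays and 109 to 284 in bulge. Cenpe, a kinesin that moves chromosomes to the spindle equator, had 765 in activated Het HG, 226 to 267 on the other HG arrays and 39.7 to 150.2 in bulge. For Cenpe each HG array also lay above each TK array.

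Spindle motors and microtubule proteins repeated the order of the fractions. Kif22, a chromokinesin, had HG signals of 1469.7 in cKO set 2 and 4033 in Het set 2, against 1430.3 in cKO set 1 and 1788 in Het set 1. In bulge Kif22 had 429.9 in cKO set 2, 1219.6 in Het set 2, 433 in cKO set 1 and 579 in Het set 1. In TK Kif22 had 1604 in cKO set 2, 3497 in Het set 2, 753 in cKO set 1 and 1418 in Het set 1. For Kif22 the Het TK set 2 array came close to the activated HG array by the probe set used, and the lowest HG array was above the highest bulge array. The other probe sets of Kif22 read 1688 and 710 on activated Het HG, against at most 643 and 310 on the other arrays. Nusap1, which binds and bundles spindle microtubules, had HG signals of 1803 in cKO set 2 and 4195 in Het set 2, against 1095 in cKO set 1 and 1712 in Het set 1. In bulge Nusap1 had 458 in cKO set 2, 557 in Het set 2, 393 in cKO set 1 and 383 in Het set 1. In TK Nusap1 had 667 in cKO set 2, 1827 in Het set 2, 754 in cKO set 1 and 907 in Het set 1. Nusap1 had its lowest signals in bulge, without overlap with HG or TK. Kif2c, a kinesin that shortens microtubules, had 2505 in activated Het HG, 398 to 785 on the other HG arrays and 176 to 279.5 in bulge. Kif11, the kinesin that separates the spindle poles, had 2424 in activated Het HG, 512 to 874 on the other HG arrays and 149 to 270.1 in bulge. Neither overlapped between HG and bulge by the probe set used. A second probe set of Kif2c, above the pooled median on 9 arrays, differed by 0.11 on average between HG and bulge. The other probe sets of Kif11 differed by 2.43 and 1.82.

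Among genes of the central spindle and cytokinesis, Anln stood out least on the activated array. Anln, anillin, a scaffold of the cleavage furrow, had HG signals of 2226 in cKO set 2 and 3803 in Het set 2, against 3137 in cKO set 1 and 3044 in Het set 1. In bulge Anln had 639.6 in cKO set 2, 675 in Het set 2, 568 in cKO set 1 and 582 in Het set 1. In TK Anln had 1220.0 in cKO set 2, 2903 in Het set 2, 1729 in cKO set 1 and 1735 in Het set 1. The activated Het HG array of Anln was 1.21-fold above the next HG array, and all HG arrays lay above all bulge arrays. Prc1, which bundles the microtubules of the central spindle, had HG signals of 1705 in cKO set 2 and 2685 in Het set 2, against 1286 in cKO set 1 and 1504 in Het set 1. In bulge Prc1 had 413 in cKO set 2, 570.4 in Het set 2, 479 in cKO set 1 and 357 in Het set 1. In TK Prc1 had 1140.4 in cKO set 2, 1574 in Het set 2, 1129 in cKO set 1 and 1069.9 in Het set 1. All HG arrays of Prc1 lay above all bulge arrays. Ect2, an activator of RhoA, had 2681 in activated Het HG, 906 to 1081 on the other HG arrays and 244 to 463 in bulge. Kif23, a motor of the centralspindlin complex, had 2225 in activated Het HG, 679 to 748 on the other HG arrays and 138 to 269 in bulge. Racgap1, its partner in that complex, had 1430.3 in activated Het HG, 294 to 343 on the other HG arrays and 55.1 to 269 in bulge. None of these 3 overlapped between HG and bulge. Kif20a, a kinesin that carries the passenger complex to the central spindle, had 1448 in activated Het HG, 271 to 345 on the other HG arrays and 4.7 to 108 in bulge. Kif20a lay under the floor in cKO bulge set 1.

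The chromosome proteins were lowest in bulge. Top2a, the topoisomerase that untangles sister chromatids, had HG signals of 2922 in cKO set 2 and 8482 in Het set 2, against 2891 in cKO set 1 and 2866 in Het set 1. In bulge Top2a had 925 in cKO set 2, 969.8 in Het set 2, 847 in cKO set 1 and 608 in Het set 1. In TK Top2a had 1412 in cKO set 2, 3901 in Het set 2, 1734 in cKO set 1 and 1726 in Het set 1. The 3 quiescent HG arrays of Top2a were nearly alike, and the activated array stood clear of them. Mki67, Ki-67, which coats mitotic chromosomes and marks cycling cells, had HG signals of 3623 in cKO set 2 and 8531 in Het set 2, against 3395 in cKO set 1 and 4639.9 in Het set 1. In bulge Mki67 had 769 in cKO set 2, 643 in Het set 2, 1083 in cKO set 1 and 627 in Het set 1. In TK Mki67 had 1155 in cKO set 2, 2968 in Het set 2, 1342 in cKO set 1 and 1513 in Het set 1. Mki67 separated all HG arrays from all TK arrays and these from all bulge arrays.

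The genes moved together over the 12 arrays. The correlation of each gene's log2 signal with the mean of the other genes had a median of 0.949, ran from 0.785 (Cdc25c) to 0.986 apart from Foxm1 (-0.275), and was at least 0.9 for 31 of 39. These correlations describe 12 arrays that share fractions and genotypes. Where 2 or more probe sets of a gene were above the pooled median on at least 2 arrays (25 genes with 57 probe sets), 53 of the probe sets were higher in HG than in bulge on average and 50 were highest on activated Het HG.

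HG cells had more of nearly all mitosis genes than bulge cells. In limma on the 8 HG and bulge arrays, with genotype and set together as a block of 4 levels, 37 of 39 genes were higher in HG at an adjusted p (Benjamini-Hochberg over all genes) under 0.05 and none was lower, against 8.44% of 12578 genes tested that were higher. The median log2 difference was 2.12 over the list and -0.02 over all genes. The largest differences were those of Kif20a, at 2.82 (SE 0.41, adjusted p = 0.00162), Bub1, at 2.73 (SE 0.30, adjusted p = 3.97e-04), Ndc80, at 2.69 (SE 0.36, adjusted p = 0.00109), and Ttk, at 2.67 (SE 0.31, adjusted p = 5.44e-04). For Kif20a 1 and for Ndc80 2 of the 4 bulge arrays lay at the floor. Foxm1, at -0.30 (SE 0.27, adjusted p = 0.478), and Cdc25c, at 0.95 (SE 0.35, adjusted p = 0.0921), did not pass. With the mean of all its probe sets Foxm1 was at 0.36, and Cdc25c then passed at 1.496 (adjusted p = 0.0466).

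All members of 8 of the 9 roles passed in HG against bulge. The checkpoint genes had differences of 1.80 to 2.73, the kinetochore genes of 1.65 to 2.69, the cytokinesis genes of 1.94 to 2.82 and the 2 chromosome genes of 2.20 and 2.63. The kinases had 1.59 to 2.44, the spindle genes 1.71 to 2.13, the passenger complex 1.65 to 2.29 and the APC/C partners 1.71 to 2.21, and among the regulators 4 of 6 passed. For 32 of the 39 genes every HG array lay above every bulge array, against 9.33% of all genes. The same 32 genes were above with the 3 quiescent HG arrays alone, against 14.5% of all genes. For the list this count could not differ, since the activated array was the lowest HG array for none of its genes. The exceptions were Ccnb2, Cdc20, Foxm1, Ube2c, Cenpa, Cdca3 and Cdc25c. Leaving out each condition in turn left 34 to 36 genes called, 36 of them without the pair that holds the activated HG array, and without a filter on low signals 17 were called.

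Markers of other cells moved with this comparison. The 11 fibroblast markers summed to 29706 to 37994 in HG and 198029 to 387059 in bulge, with Twist2 at the floor in cKO HG set 2 and all 11 lower in HG. Of 9 melanocyte markers 7 were higher and 1 lower in HG, with sums of 12205 to 21404 in HG and 7298 to 9471 in bulge and Slc45a2 at the floor in Het bulge set 1. Of the 7 hair matrix markers 3 were higher, with sums of 2497 to 36443 in HG and 1108 to 2508 in bulge and Krt35 at the floor in cKO bulge set 1. Their part in the result was not tested.

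**Figure D3:**
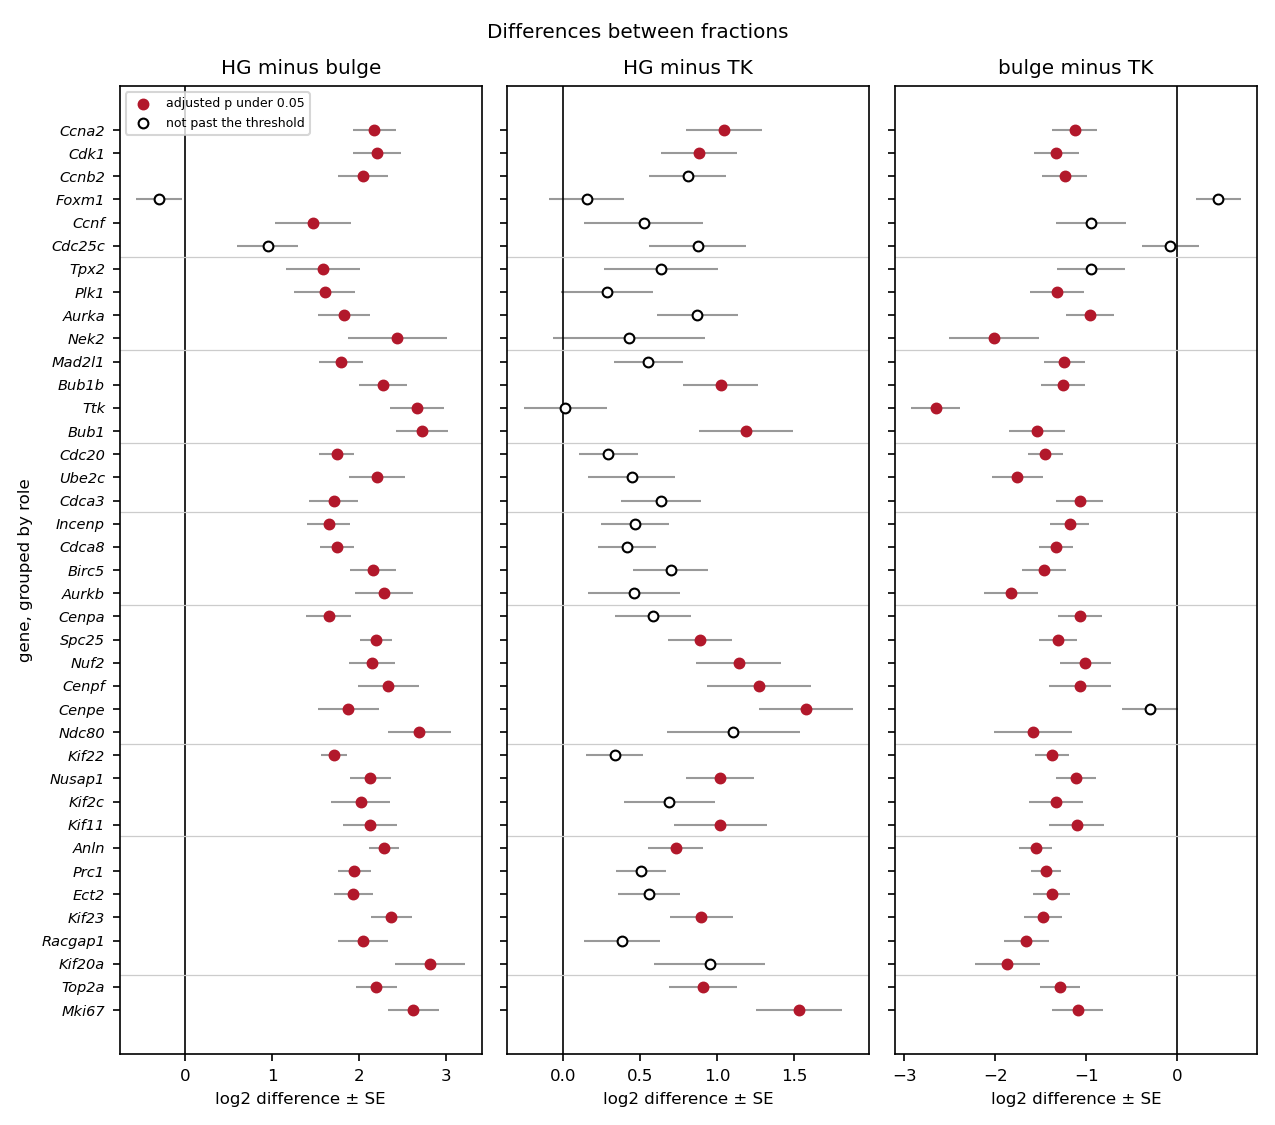
Log2 difference with its standard error for each of 39 mitosis genes, in HG minus bulge, HG minus TK and bulge minus TK (limma), with filled points for an adjusted p under 0.05 and open points otherwise. In HG minus bulge 37 points are filled and lie right of 0, in HG minus TK 14, and in bulge minus TK 34 lie left of 0.

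HG cells also had more of part of the list than total keratinocytes, a mixture of the whole skin epithelium. In the fit of all 12 arrays 14 of 39 genes were higher in HG and none was lower, against 5.09% of 12737 genes tested that were higher, with a median of 0.70 over the list and 0.04 over all genes. Cenpe differed by 1.58 (SE 0.31, adjusted p = 0.00979), Mki67 by 1.53 (SE 0.28, adjusted p = 0.0071), Cenpf by 1.27 (SE 0.34, adjusted p = 0.0335) and Bub1 by 1.19 (SE 0.31, adjusted p = 0.0299). By role 4 of 6 kinetochore genes passed (Cenpe, Cenpf, Nuf2 and Spc25), 2 of 6 regulators (Ccna2 and Cdk1), 2 of 4 checkpoint genes (Bub1 and Bub1b), 2 of 4 spindle genes (Nusap1 and Kif11), 2 of 6 cytokinesis genes (Kif23 and Anln) and both chromosome genes. None of the kinases, the APC/C partners or the passenger complex passed, with differences of 0.29 to 0.87, 0.30 to 0.64 and 0.41 to 0.70. All 39 differences were positive, down to 0.02 for Ttk.

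The count of 14 depended on the arrays and the fit. Leaving out each condition in turn gave 1 for cKO set 2, 13 for Het set 2, which holds the activated array, 7 for cKO set 1 and 0 for Het set 1. The count was 1 without the block, 1 without the filter, 4 with the mean of all probe sets and 6 without the trend. The hair matrix markers summed to 1279 to 13886 in TK, highest in Het TK set 2, and the melanocyte markers to 12205 to 21404 in HG against 1794 to 4503 in TK. The epidermal markers summed to 20037 to 92377 in HG against 128941 to 164402 in TK, and 5 of 8 were lower in HG, Krt1 at -2.75 among them. Of the 11 fibroblast markers 3 were lower, Col1a1 at -1.04 among them, and 1 was higher. The part of these cells was not tested.

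Bulge cells had less of most mitosis genes than total keratinocytes. Of 39 genes 34 were lower in bulge and none was higher, against 10.5% of 12737 genes that were lower, with a median of -1.31 over the list and 0.05 over all genes. Ttk differed by -2.65 (SE 0.27, adjusted p = 3.10e-05), Nek2 by -2.01 (SE 0.49, adjusted p = 0.0102), Kif20a by -1.87 (SE 0.36, adjusted p = 0.00236) and Aurkb by -1.83 (SE 0.30, adjusted p = 8.13e-04). For Nek2 and for Kif20a 1 of the 4 bulge arrays lay at the floor. All checkpoint, APC/C partner, passenger complex, spindle, cytokinesis and chromosome genes passed. The genes that did not pass were Ccnf, at -0.94 (SE 0.38, adjusted p = 0.0947), Tpx2, at -0.95 (SE 0.37, adjusted p = 0.0818), Cenpe, at -0.30 (SE 0.31, adjusted p = 0.508), Cdc25c, at -0.08 (SE 0.31, adjusted p = 0.883), and Foxm1, at 0.45 (SE 0.24, adjusted p = 0.199). Cenpe, a kinetochore motor, thus led the differences between HG and TK and was near 0 between bulge and TK, and Ttk was the reverse. Leaving out each condition left 26 to 33 genes called, and 12 were called without the block. The fibroblast markers summed to 198029 to 387059 in bulge against 26068 to 59293 in TK, and the epidermal markers to 72575 to 123194 in bulge against 128941 to 164402 in TK, and their part was not tested.

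In Het stem cells the fitted mean over HG and bulge was higher in set 2, labelled activated, for all 39 mitosis genes. Of these differences from set 1, 2 passed the test. Spc25, of the NDC80 complex, rose by 1.78 (SE 0.26, adjusted p = 0.0269) and Cdc20, the APC/C activator, by 1.61 (SE 0.28, adjusted p = 0.0442). The background is 0.0636% of 12578 genes tested that were higher. In this limma fit HG and bulge served as the observations of each condition. The probe sets of Spc25 disagreed. In Het HG alone, set 2 minus set 1, the one used stood at 1.65. Another, above the pooled median on 8 arrays and highest on Het HG set 1, stood at -1.24. The other probe sets of Cdc20 stood at 1.60 and 3.15 there. The median difference in the fit was 1.27 over the list and -0.09 over all genes, and 31 of 39 had an unadjusted p under 0.05, as did 2117 of all genes. By role the values were 1.07 to 2.60 for the kinases, 0.82 to 2.32 for the passenger complex, 1.53 to 1.78 for the APC/C partners and 0.83 to 1.99 for the kinetochore genes. They were 0.56 to 1.72 for the checkpoint, 0.92 to 1.30 for the spindle, 0.27 to 1.82 for cytokinesis, 0.26 to 1.59 for the regulators, and 0.46 and 1.12 for Mki67 and Top2a. In the same fit the 7 hair matrix markers had positive values (median 3.12), and all 8 epidermal (median -1.56) and all 10 immune markers (median -1.27) negative ones, and their part was not tested. The count of 2 depended on single arrays. It rose without the Het bulge array of set 2 or without activated HG, and fell without any 1 of the other 6 arrays. In such a fit 1 array stands for a condition and its spread is taken from the other groups. These counts are therefore not used as evidence, and only their range is listed with the processing settings.

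Single arrays show where this difference lay. In Het HG 35 of 39 genes were at least 2-fold higher in set 2 than in set 1, against 8.83% of the genes compared, with a median log2 difference of 1.71. The values ran from 0.32 (Anln) to 2.45 (Nek2). In Het bulge 16 were at least 2-fold higher (background 3.88%), with a median of 0.78. There 37 values were positive and 2 negative, those of Ccnf and Ttk. Nek2 and Ndc80 lay under the floor in Het bulge set 1, so their differences are bounds set by the floor. In Het TK 27 were at least 2-fold higher (background 4.52%), with a median of 1.18. Mki67, the general marker of cycling cells, was among the smaller ones in Het HG at 0.88 and stood at 0.04 in Het bulge. In TK the hair matrix markers stood highest on the same Het set 2 array, and their part was not tested. These pairs have no replicate check, and those other than the HG pairs were added after the values were seen.

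In cKO stem cells no mitosis gene passed between set 2, labelled aberrantly quiescent, and set 1 in limma, and the background is 0% of 12578 genes. At an unadjusted p under 0.05 it was 5 of 39 and 777 of all genes, and the list's median was 0.35. Spc25 stood at 0.81 (SE 0.26, adjusted p = 0.787) and Cdc20 at 0.39 (SE 0.28, adjusted p = 0.827). In single arrays 2 of 39 genes were at least 2-fold higher in set 2 in cKO HG (background 4.1%), Ube2c at 1.14 and Ndc80 at 1.10, with a median of 0.41. Under quantile normalization 5 were. In cKO bulge 5 were at least 2-fold higher, Kif20a and Ndc80 (both bounds set by the floor), Bub1, Cdca3 and Racgap1 (background 3.51%, median 0.22). In cKO TK 3 were, Cenpa, Kif22 and Aurka (background 2.23%, median 0.29), and 1 of 39, Foxm1, was at least 2-fold lower, against 5.78% of the genes compared.

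The test of the genotype difference in the set effect did not pass for any gene of the list. In the limma interaction, cKO set effect minus Het set effect, all 39 values were negative with a median of -0.87, against 0.05 over all genes. At an unadjusted p under 0.05 it was 9 of 39 genes and 916 of all 12578, and 0.00795% of all genes, which is 1 gene, passed. Among the genes given here Cdc20 had -1.22 (SE 0.40, adjusted p = 0.663) and Kif22 -1.11 (SE 0.31, adjusted p = 0.62). Some genes of the list passed without the Het bulge array of set 2. In that fit a single array stands for the condition, so its count is not used as evidence.

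**Figure D4:**
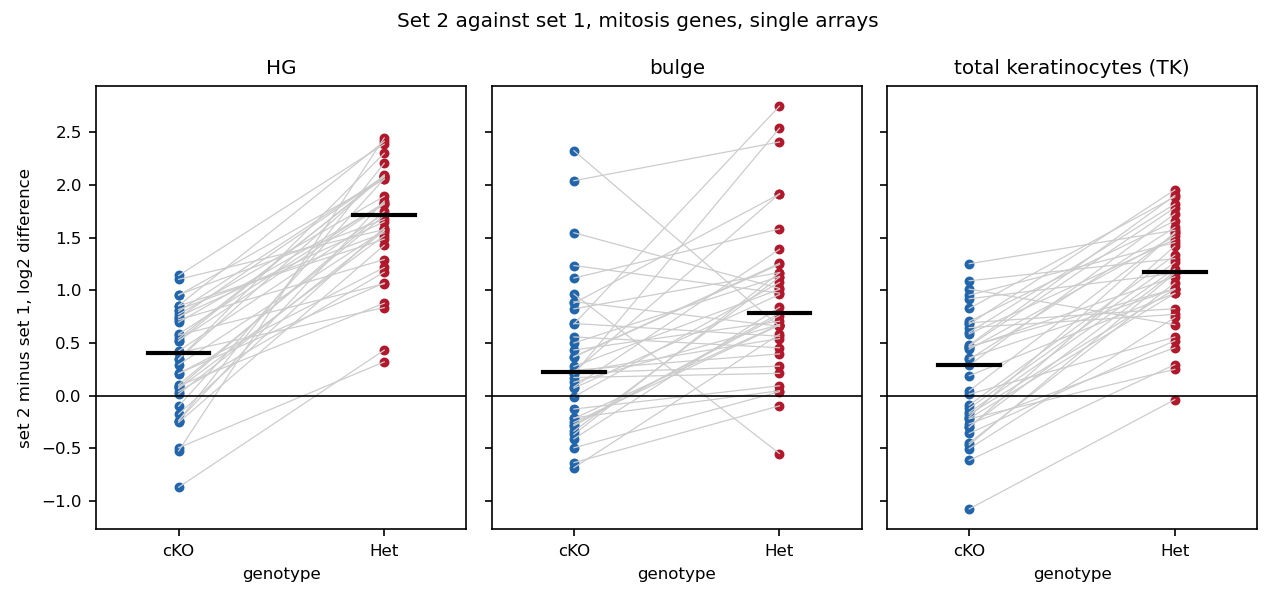
Log2 difference of set 2 minus set 1 for 39 mitosis genes in single arrays of HG, bulge and TK, with cKO in blue and Het in red, a grey line joining the values of a gene and a black bar at the median. The medians are 0.41 in cKO and 1.71 in Het for HG, 0.22 and 0.78 for bulge, and 0.29 and 1.18 for TK.

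In set 2 the fitted mean over HG and bulge was lower in cKO than in Het for all 39 mitosis genes, and 1 difference passed. Kif22, the chromokinesin, differed by -1.48 (SE 0.22, adjusted p = 0.0369). The background is 0.00795% of 12578 genes that were lower, 1 gene, which is Kif22 itself, and 32 genes were higher in cKO. All 39 values were negative with a median of -1.10. Cdc20 at -1.67 (SE 0.28, adjusted p = 0.0549) and Spc25 at -1.12 (SE 0.26, adjusted p = 0.106) did not pass. The count rose when Het bulge of set 2 or activated HG was left out, and fell when any 1 of the other 6 arrays was. A single array then stands for a condition, so these counts are not used as evidence. In single arrays of set 2, 33 of 39 genes were at least 2-fold lower in cKO than in Het HG (background 8.45%, median -1.57), 7 in bulge (background 6.39%, median -0.45), where 31 values were negative and 8 positive, and 29 in TK (background 4.59%, median -1.18). The largest gap in HG was that of Nek2 at -3.48, and Prc1 had the smallest at -0.66. The hair matrix markers summed to 4404 in cKO HG set 2 and to 36443 in Het HG set 2. In the fit all 7 of them had negative values (median -1.42) and all 8 epidermal markers positive ones (median 0.89), and their part was not tested.

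In set 1, where both genotypes are labelled quiescent, no gene of the list passed between cKO and Het in limma (background 0%), and none had an unadjusted p under 0.05, against 261 of all 12578 genes. The median difference was -0.15, with 25 of 39 negative. In single arrays of set 1, 3 genes were at least 2-fold lower in cKO HG (background 3.56%), Ube2c, Cdc25c and Ccnb2, and 1 was higher, Ccnf at 1.11 (background 3.09%). Of 36 genes compared in bulge, Ccnf was at least 2-fold lower (background 2.96%) and 4 were higher, Tpx2, Aurkb, Cenpe and Cenpf (background 7.17%). Of 37 compared in TK none differed by 2-fold in either direction (background 1.42% lower).

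Over all fractions and both sets no mitosis gene passed between cKO and Het in limma (background 0% of 12737 genes), although 38 of 39 values were negative with a median of -0.61. At an unadjusted p under 0.05 it was 23 of 39 and 1096 of all genes, and the smallest adjusted p in the list was 0.269. In TK alone, with 2 arrays of each genotype, none passed (background 0% of 11114 genes), all 39 values were negative with a median of -0.73, and 7 had an unadjusted p under 0.05, as did 248 of all genes. The immune markers (10 genes) summed to 20902 and 17970 on the cKO TK arrays of set 2 and set 1, against 7791 and 9842 on the Het TK arrays. All 10 had positive values, 7 with an unadjusted p under 0.05, Cd207 of Langerhans cells at 1.54 and H2-Ab1 at 1.59 among them, and their part was not tested. Between set 2 and set 1 of TK none passed either (background 0% of 11114 genes), with 37 of 39 positive, a median of 0.71, and 15 at an unadjusted p under 0.05, as had 2494 of all genes. All 7 hair matrix markers were also positive (median 2.36, Krt35 at 5.47) and all 10 fibroblast markers tested negative (median -0.95, Col1a2 at -1.49), and their part was not tested. The number of mitosis genes past the adjusted threshold rose when either TK array of set 2 was left out. In these fits 1 array stands for set 2 and is assumed to vary like the arrays of set 1. Their counts are therefore not used as evidence. With genotype as a block the number was 4.

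Other genes of mitosis, outside the list of 40, were also higher in HG than in bulge for the most part. Of 82 tested, chosen from known mitosis genes with earlier results of these data known, 57 were higher and 2 lower in HG than in bulge, against 8.44% and 10.7% of all genes, with a median of 1.51. Sgo1, shugoshin, which protects cohesion between sister chromatids, differed by 3.57, Cdca2 by 2.82, Esco2, which acetylates cohesin, by 2.63 and Spag5, a spindle protein, by 2.53. The 2 lower ones were Cdc25b, a phosphatase of the CDKs, at -0.72, and the kinase gene Nek7 at -0.57. Against TK, 22 were higher and 1 lower in HG (5.09% and 5.72% of all genes), led by Kif20b at 1.58 and Ncapg at 1.35, with the tubulin gene Tubb4b at -0.79. Against TK 42 were lower and 1 higher in bulge (10.5% and 13.8% of all genes), with Cdca2 at -2.48, Sgo1 at -2.31, Haspin at -2.06 and Kif4 at -1.97, and Cenpp at 0.75. In the set 2 comparison of Het none of 82 passed, against 0.0636% of 12578 genes that were higher. The median of the 82 was 0.82, and 35 had an unadjusted p under 0.05. The median of all genes and their number at that unadjusted p are given above with that comparison.

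Cdc20 and Ube2c act on the core of the APC/C. Of 15 genes of core subunits 1 was higher in HG than in bulge, Cdc27 at 0.61, against 8.44% of all genes, with a median of 0.14. In HG against TK 2 were higher, Anapc4 (0.65) and Cdc27 (0.63), against 5.09% of all genes. In bulge against TK 2 were higher, Anapc16 (0.54) and Anapc4 (0.52), against 13.8%. For HG against bulge and for bulge against TK these shares are near those of all genes, and for HG against TK 2 of 15 lies above. Of 24 factors that act on promoters of mitosis genes, 11 were higher in HG than in bulge and none was lower. The shares of all genes were 8.44% and 10.7%. The median was 0.76, and E2f8 at 2.74, Myb at 2.53, E2f3 at 2.25 and E2f2 at 1.96 led. Mybl2, which encodes B-Myb, the partner of the MuvB complex in dividing cells, differed by 1.46 (adjusted p = 0.0449). In HG against TK none passed, against 5.09% of all genes that were higher and 5.72% that were lower. In bulge against TK 9 were lower, against 10.5% of all genes. Among them were E2f2 at -2.08, E2f8 at -1.94, Myb at -1.83 and E2f3 at -1.60.

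**Figure D5:**
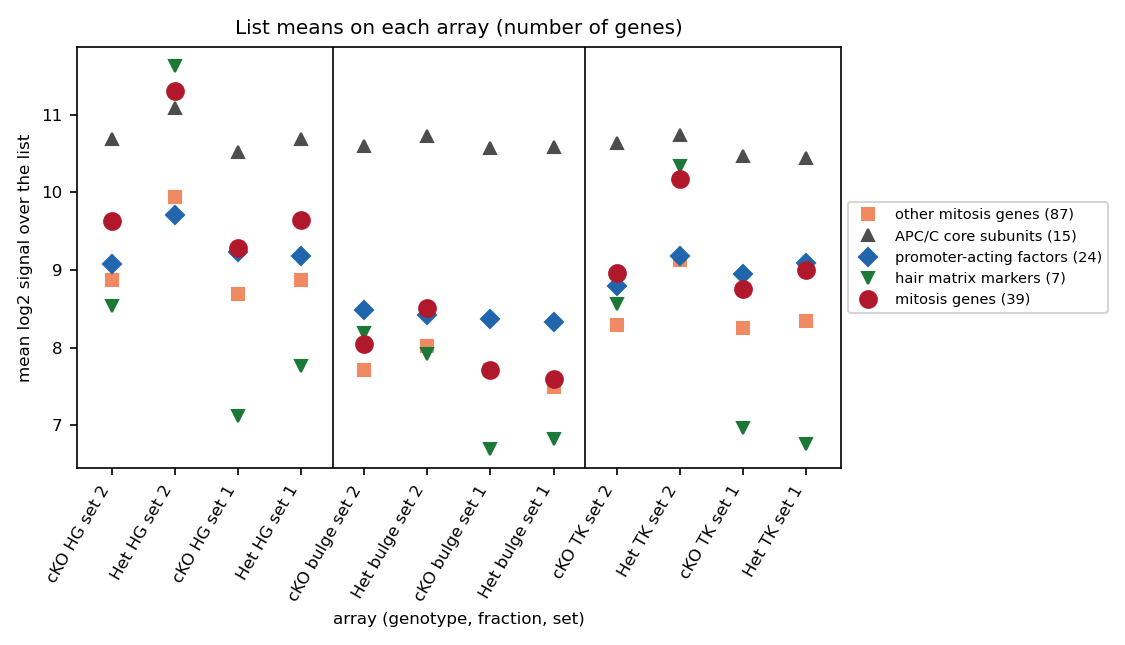
Mean log2 signal over each list on each of 12 arrays, for 39 mitosis genes (red circles), 87 other mitosis genes, 15 APC/C core subunits, 24 promoter-acting factors and 7 hair matrix markers, by fraction, set and genotype. The mitosis genes reach 11.30 on the Het HG set 2 array and lie lowest in bulge, the APC/C core subunits stay between 10.44 and 11.09, and the hair matrix markers peak on the Het HG set 2 and Het TK set 2 arrays.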

How the data were processed

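Labelled cRNA from 2 µg of total RNA (Trizol) of sorted cells was measured on 12 arrays, per the labels. The authors deposited MAS5 signals, per the submitters' processing notes, as intensity on a linear scale, and each array had a mean of 500 after trimming 2% at each end, which was checked. No source used here gives the MAS5 version. Of 45037 probe sets that are no controls, 34945 had 1 gene symbol, 932 several and 9160 none, and 34741 were named through their gene ID. Each gene was read by whichever of its unambiguous probe sets was brightest on average (log2). Signals under the pooled 25th percentile (20.7, log2 4.37) were set to it before the log2. A gene entered a fit if at least 2 of its arrays exceeded the pooled median (84.7), and was tested with limma 3.58.1 on R 4.3.3 (eBayes with trend, two-sided, Benjamini-Hochberg over all genes, threshold 0.05). All 39 genes passed this filter in the 12-array fits. Fractions were compared within genotype and set as a block, and sets and genotypes in HG and bulge with fraction as a term. Genotypes over all fractions had the fraction and set as a block. Single arrays were compared at 2-fold where the brighter of the pair exceeded that median. Motifs were searched on both strands of RefSeq promoters. Fits were tested on simulated data. The number of arrays limits precision. The genes and lists, the comparisons and the rule for named genes were chosen with earlier results of these data known. That rule gives, on every array, the 2 genes of highest mean log2 signal per role plus Mki67, Cdk1, Plk1, Cdc20 and Spc25, and, per comparison, up to 4 genes with the largest change past the threshold in each direction, with those that did not pass where 5 or fewer. Alternatives changed the normalization, floor, filter, choice of probe sets, trend, block or arrays.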

Additional observations from a re-analysis of the deposited data

Results flagged for a closer look

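Incenp, the scaffold of the chromosomal passenger complex, moved in opposite directions in the genotypes on every pair of arrays. Averaged over HG, bulge and TK, the log2 difference of set 2 minus set 1 was -0.22 in cKO and 0.70 in Het, which is -0.9179 for cKO minus Het. Over the list this value ran from -2.18 (Nek2) to -0.27 (Aurka). Mki67, Top2a, Foxm1, Tpx2, Nuf2, Ect2 and Anln also had a negative average in cKO and a positive one in Het. For Incenp all 3 cKO differences were negative and all 3 Het differences positive, and its difference over 3 fractions was not tested. In the limma interaction over HG and bulge alone Incenp had -1.02 (adjusted p = 0.706). Opposite directions in each of the 3 fractions were found for 1 of 39 genes (2.56%), against 1.33% of all genes. With 1 gene these shares do not set the list apart from all genes. The Het bulge signals of Incenp were close, at 893 in set 2 and 865 in set 1. Of the other probe sets of Incenp, one above the pooled median on all 12 arrays was highest on Het HG set 2 (1169) and higher by 1.16 in set 2 in Het HG, and one above the median on 3 arrays was highest in cKO HG set 1.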

How the results depend on the processing

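The number of arrays limits all counts, since no combination of fraction, genotype and set was measured on more than 1 array. The count of genes higher in HG than in bulge (37) was 17 without the filter and 34 to 36 over the leave-one-out fits. For HG against TK (14) it was 1 without the filter, 4 with the mean of all probe sets, 6 without the trend, 1 with no replicate block and 0 to 13 over the leave-one-out fits. For bulge against TK (34) it was 12 with no replicate block. For Het set 2 against set 1 (2) it was 0 with the floor at the pooled median, without the filter, with the mean of all probe sets and without the trend, and 0 to 33 when 1 array was left out. The interaction (0) gave 0 to 17 when 1 array was left out. For cKO against Het in set 2 (1) the same 4 settings gave 0, and leaving out 1 array 0 to 31. For TK set 2 against set 1 (0) genotype as a block gave 4 and leaving out 1 array 0 to 29. For cKO against Het in TK the replicate block (the set number) gave 0, as did no block. The differences of set 2 minus set 1 in cKO TK and Het TK had a correlation of 0.495 across 11114 genes, which are not independent replicates. In cKO HG 5 genes and not 2 were at least 2-fold higher in set 2 under quantile normalization. Foxm1 changed sign with the mean of all probe sets, to 0.36 in HG against bulge and to -0.12 in bulge against TK. Cdc25c in bulge against TK ran from -0.26 to 0.0735 (without Het set 2) over the leave-one-out fits, with 0.0041 without cKO set 2. Without the filter more genes are tested and adjusted over, and the leave-one-out fits have fewer arrays. When 1 array was left out of a set, interaction or genotype comparison, a single array stood for a condition. The upper ends of those ranges are therefore not evidence for a difference. The cause of the shifts was not tested for any setting. The count of genes highest on Het HG set 2 was 38 under each of the 3 settings tried (quantile normalization, no floor, mean of all probe sets).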
